A study of Drosophila melanogaster with 6 samples.

Results

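The cytochrome P450 family was taken as every gene of the deposited table whose symbol reads Cyp, digits, letters and digits, as in Cyp4d1. The rule found 79 of the 15741 entries. It leaves out the cyclophilins and the ecdysteroid-making P450s that carry names such as phm and sad, and also Cyp12d1-p and Cyp12d1-d, whose symbols end in a suffix. The members were grouped by the digits of the symbol into the CYP3 clan (36 genes), the CYP4 clan (32 genes), the mitochondrial clan (7 genes) and the CYP2 clan (4 genes).

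P450s are haem enzymes that insert oxygen into hormones, lipids, plant compounds and insecticides. Most sit in the endoplasmic reticulum and draw electrons from the reductase Cpr, while the mitochondrial clan draws them from a ferredoxin and its reductase. In fly larvae the midgut, the fat body and the Malpighian tubules, the insect's excretory organ, are the main sites of foreign-compound breakdown, and oenocytes and endocrine tissue hold P450s of lipid and hormone pathways.

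Messenger RNA was sequenced from whole Drosophila melanogaster larvae of the last, wandering instar, raised at 25 °C, in 3 genotypes at 2 stages. The genotypes were RNAi depletion of Cmi (gene Lpt), RNAi depletion of Trr (gene trr) and wild type. Both proteins are parts of a COMPASS-like complex, which places methyl marks on histone H3 in enhancers, and both hairpins were driven by GawB69B Gal4. Clear gut larvae are the later and blue gut larvae the earlier wanderers. Each of the 6 groups was 1 library from a pool of more than 20 animals. No label names the stock used as wild type or says if the Gal4 driver was present in it, so genotype and stock background cannot be told apart.

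The deposited values imply a depth of 23.1 to 25.0 M reads in the 6 libraries. Lpt stood at 5.11 RPKM (reads per kilobase of gene, scaled for library depth) in Cmi depletion at clear gut, against 6.66 in wild type, and at 4.44 RPKM in Cmi depletion at blue gut, against 5.57 in wild type. The gene trr stood at 4.76 RPKM in the library labelled Trr depletion at clear gut, against 6.19 in wild type, and at 3.60 RPKM in that labelled Trr depletion at blue gut, against 2.92 in wild type. The blue gut value goes against the label, so these libraries are called by their label. Limma called neither gene.

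All 79 members could be placed on the fly's Release 6 assembly (dm6), with 32 on chromosome arm 2R, 15 on 3R, 14 on X, 12 on 2L and 6 on 3L. The condition for testing, a mean over the libraries of 1 RPKM or more, was met by 63 members. The other 16 never passed 2.34 RPKM in any library. They include Cyp4d21, a gene of male courtship, which was listed at 0 in all clear gut libraries and never passed 0.024 RPKM, and the bristle gene Cyp303a1, which never passed 0.672 RPKM.

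Summed over the members, P450 RNA was lower at clear gut in every genotype. The sum was 928 RPKM in Cmi depletion, 1180 in the library labelled Trr depletion and 949.5 in wild type at clear gut, against 1922, 1869 and 2451 RPKM at blue gut in the same genotypes. P450 reads thus made up 0.173% to 0.221% of the implied depth at clear gut and 0.338% to 0.449% at blue gut. The lead also passed to other genes. At clear gut the most abundant member was Cyp6d5, a phenobarbital-inducible gene, in Cmi depletion (174 RPKM) and wild type (96.6 RPKM), and the mitochondrial Cyp12a4 in the library labelled Trr depletion (117 RPKM). At blue gut it was Cyp9f2 in Cmi depletion (223 RPKM), and Cyp9b2 in the library labelled Trr depletion (224 RPKM) and in wild type (552 RPKM).

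**Figure D1:**
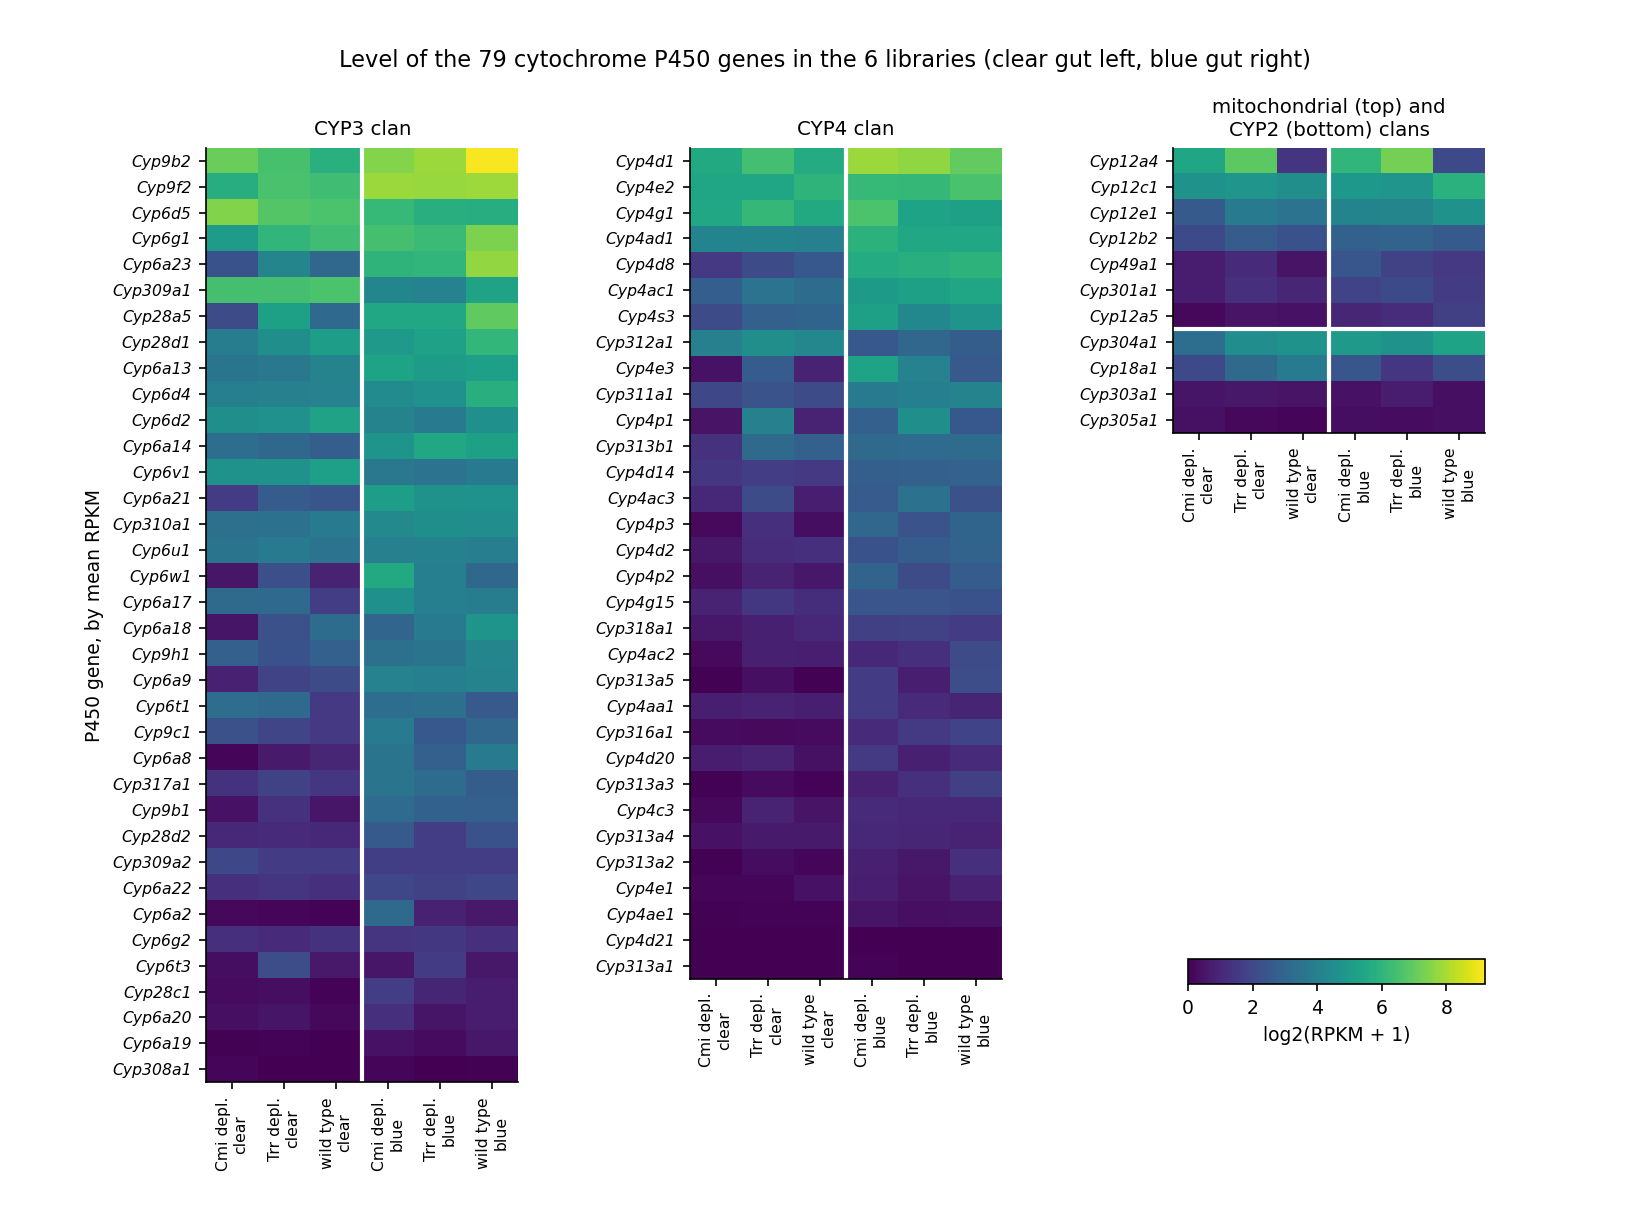
Level of each of the 79 P450 genes as log2(RPKM + 1), by colour, in the 3 clear gut libraries (left of the white line) and the 3 blue gut libraries (right), with genes in order of mean RPKM within each clan. Most rows are darker at clear gut, while Cyp309a1, Cyp6d5, Cyp6v1 and Cyp312a1 are brighter there, and Cyp12a4 is bright in both depletions and dark in wild type.

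The comparison of clear gut with blue gut asked how the family changed from the earlier to the later part of wandering. Limma, fitted over all genes with genotype and stage as additive terms, called 40 of the 63 tested members lower at clear gut, 5 higher and 18 neither way. Of all 11467 genes tested, 11.1% were called lower and 24.2% higher. The tested members' median stage change was -1.20 on the scale of log2(RPKM + 1), while that of all genes was 0.15. With median-ratio scaling the median of all genes moved to -0.05 and their calls to 1454 lower and 1340 higher. Measured from the median of all genes, the members' median was -1.35 as deposited, -1.30 under median-ratio scaling and -1.29 under quantile normalization.

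In 44 of the 63 tested members every clear gut library lay below every blue gut library, against 14.0% of all genes, and in 4 every clear gut library lay above, against 38.5%. With 1 library per group the residual of the fit is how far the stage change differs between genotypes, not the spread between pools. Without either wild-type library limma called 0 of 11467 genes. In the same fits 41 of the 63 members had an unadjusted limma p under 0.05, beside 34.5% and 34.8% of all genes. The changes themselves stayed about as large: the members' median was -1.08, or -1.29 measured from the median of all genes. Fits without 1 of the other libraries also kept 1 residual degree of freedom, and they did call members. The cause of the 0 was not tested.

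Larval organs are remodelled at this time, and in whole larvae fewer cells of a type and less RNA per cell cannot be told apart. Of 26 tested midgut enzyme genes, 24 fell at clear gut, and the list summed to 4249 to 6296 RPKM at clear gut against 39348 to 45257 RPKM at blue gut. The 10 fat body genes gave 5 lower and 1 higher, with sums of 28631 to 36027 RPKM at clear gut against 46681 to 55401 RPKM at blue gut. The 12 Malpighian tubule genes gave 5 lower and 2 higher, with sums of 118 to 134 RPKM at clear gut against 138 to 195 RPKM at blue gut. Of 10 tested muscle genes, 6 fell and 0 rose, with sums of 181 to 830 RPKM at clear gut against 1990 to 2540 RPKM at blue gut. Of 10 tested epidermis and cuticle genes, 2 fell and 5 rose. Of 4 tested oenocyte genes, 2 rose and 0 fell, and of 6 tested salivary gland genes 0 were called. No marker that was found by name was at 0 in all libraries, but some listed genes, such as Cg and svp, were not found. Some of those found stood near 0, as the muscle gene up, which never passed 0.064 RPKM. The part of these tissues in the P450 values was not tested.

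**Figure D2:**
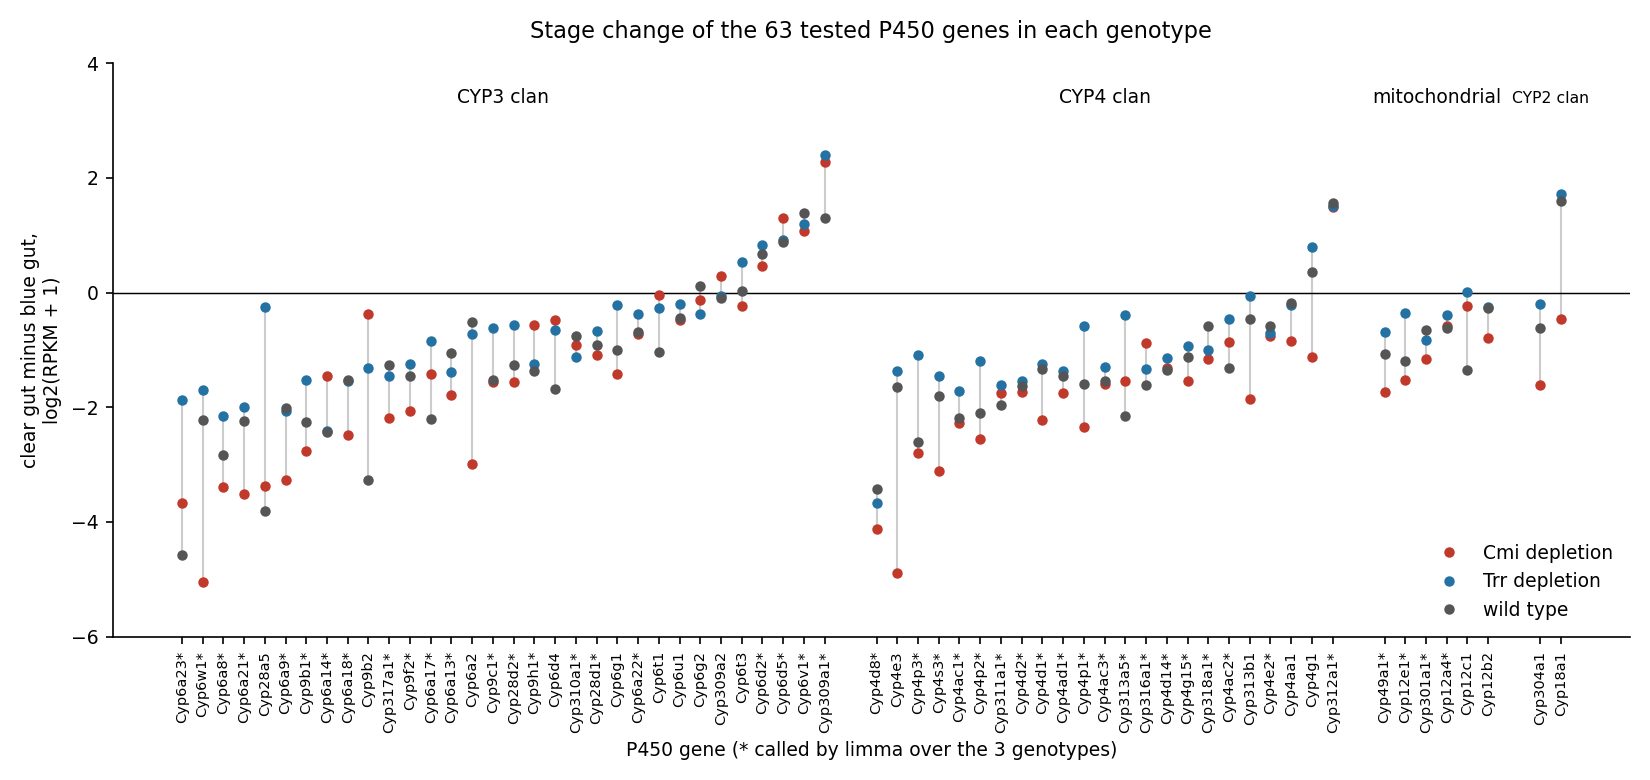
Stage change, clear gut minus blue gut on the log2(RPKM + 1) scale, of the 63 tested P450 genes in Cmi depletion (red), the libraries labelled Trr depletion (blue) and wild type (grey), in order of the limma estimate within each clan. A star marks a limma call, and grey lines span the 3 genotypes; Cyp4d8 lies below -3 in all 3, while Cyp28a5 and Cyp9b2 are spread over more than 2 units.

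In the CYP3 clan, which holds most P450s tied to insecticide and plant toxin breakdown, 18 of 32 tested members fell, 4 rose and the median change was -1.18. Cyp6a23 had 3.99 RPKM in Cmi depletion, 17.0 in the library labelled Trr depletion and 7.73 in wild type at clear gut, against 62.2, 64.7 and 207 RPKM at blue gut in the same genotypes. Every clear gut value lay below every blue gut value, with wild type at blue gut far above the rest. The log2 change was -3.37 (SE 0.55, limma adjusted p = 0.0166). Without the Cmi depletion library at clear gut, or that at blue gut, the Cyp6a23 call was lost, at limma adjusted p = 0.277 and 0.268, while the change was -3.22.

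Cyp6a8, another phenobarbital-inducible gene, had 0.108 RPKM in Cmi depletion, 0.590 in the library labelled Trr depletion and 0.964 in wild type at clear gut, against 10.7, 6.08 and 12.9 RPKM at blue gut in the same genotypes. It was under 1 RPKM in every clear gut library and well above that in every blue gut library, with a log2 change of -2.79 (SE 0.27, limma adjusted p = 0.00475). Cyp6w1, also inducible by phenobarbital, had 0.460 RPKM in Cmi depletion, 3.80 in the library labelled Trr depletion and 0.852 in wild type at clear gut, against 47.4, 14.7 and 7.60 RPKM at blue gut in the same genotypes. Its stages did not overlap, and Cmi depletion held both its highest and its lowest value (log2 change -2.99, SE 0.72, limma adjusted p = 0.0386).

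Others of the clan that fell were Cyp6a21 (log2 change -2.58), Cyp6a9 (-2.45), Cyp9b1 (-2.18) and Cyp9f2 (-1.59). Cyp6a17, which acts in temperature preference, fell by 1.49 and Cyp28d1, linked to nicotine tolerance, by 0.89 on the log2 scale. Of the Cyp6a genes, 9 of the 10 tested fell, all 12 were lower at clear gut in all 3 genotypes, and the median of those tested was -1.98.

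Abundant genes were among the CYP3 members that did not pass the test. Cyp9b2, the member with the highest mean level, had 136 RPKM in Cmi depletion, 90.1 in the library labelled Trr depletion and 56.1 in wild type at clear gut, against 178, 224 and 552 RPKM at blue gut in the same genotypes. The stages did not overlap, but the clear gut to blue gut ratio ran from 0.102 (95% counting interval 0.0974 to 0.106) in wild type to 0.768 (0.743 to 0.793) in Cmi depletion, and the limma adjusted p was 0.0974. Cyp6g1, known from DDT-resistant strains, had 32.7 RPKM in Cmi depletion, 65.9 in the library labelled Trr depletion and 82.1 in wild type at clear gut, against 89.6, 77.0 and 166 RPKM at blue gut in the same genotypes. Its stages overlapped, and its limma adjusted p was 0.0511. Cyp6a2, another gene of DDT resistance, reached 8.03 RPKM in the blue gut library of Cmi depletion and had at most 0.814 RPKM in the other 5 libraries (limma adjusted p = 0.119).

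In the CYP4 clan, which contains fatty acid hydroxylases, 18 of 23 tested members fell, 1 rose and the median change was -1.48. All tested members of the Cyp4d (4), Cyp4ac (3) and Cyp4p (3) groups fell. Cyp4d8 had 1.88 RPKM in Cmi depletion, 3.41 in the library labelled Trr depletion and 4.80 in wild type at clear gut, against 48.97, 55.2 and 61.1 RPKM at blue gut in the same genotypes. It was low in every clear gut library and high in every blue gut library, with a log2 change of -3.74 (SE 0.17, limma adjusted p = 0.00256). The clear gut to blue gut ratio was 0.0384 (95% counting interval 0.0300 to 0.0483) in Cmi depletion, 0.0617 (0.0513 to 0.0737) in the libraries labelled Trr depletion and 0.0785 (0.0672 to 0.0912) in wild type.

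Cyp4d1, the most abundant gene of the clan, had 46.7 RPKM in Cmi depletion, 85.5 in the library labelled Trr depletion and 49.4 in wild type at clear gut, against 222, 205 and 126 RPKM at blue gut in the same genotypes. Its stages did not overlap (log2 change -1.61, SE 0.23, limma adjusted p = 0.0102). Other genes of the clan that fell were Cyp4s3 (log2 change -2.13), Cyp4ac1 (-2.06), Cyp311a1 (-1.77), Cyp4d2 (-1.63), Cyp4ad1 (-1.52) and Cyp4e2 (-0.68). The Cyp4e2 call was lost without either library labelled Trr depletion, at limma adjusted p = 0.0562 and 0.0547, while the change was -0.67.

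Cyp4g1, the oenocyte enzyme that makes cuticular hydrocarbons, had no common direction. It measured 43.5 RPKM in Cmi depletion, 69.6 in the library labelled Trr depletion and 47.5 in wild type at clear gut, against 95.4, 39.5 and 36.8 RPKM at blue gut in the same genotypes. It was lower at clear gut in Cmi depletion and higher in the other genotypes, and limma gave a log2 change of 0.01 (adjusted p = 0.985).

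In the mitochondrial clan 4 of 6 tested members fell and 0 rose, with a median change of -0.71. Cyp301a1, which acts in adult cuticle formation, stood at 0.634 to 1.36 RPKM at clear gut against 2.10 to 3.18 RPKM at blue gut (log2 change -0.88). Cyp49a1 stood at 0.383 to 1.15 RPKM at clear gut against 1.91 to 4.49 RPKM at blue gut (log2 change -1.17). Cyp12e1 fell by 1.03 and Cyp12a4 by 0.54 on the log2 scale. The stages did not overlap for Cyp301a1 and Cyp49a1. The Cyp12a4 call (limma adjusted p = 0.0259) was lost when any 1 of the 6 libraries was left out, with changes of -0.49 to -0.61, and the Cyp301a1 call without either library labelled Trr depletion, at limma adjusted p = 0.0694 and 0.0713, with a change of -0.91. Cyp12d1-p, which the symbol rule leaves out, stood at 2.67 to 5.73 RPKM at clear gut against 3.75 to 25.0 RPKM at blue gut and was not called (log2 change -1.03, limma adjusted p = 0.134).

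The CYP2 clan, which holds hormone and sensory organ P450s, had 2 tested members and neither was called. Cyp18a1, the enzyme that inactivates ecdysteroids, had 3.05 RPKM in Cmi depletion, 7.96 in the library labelled Trr depletion and 13.1 in wild type at clear gut, against 4.58, 1.72 and 3.67 RPKM at blue gut in the same genotypes. The clear gut to blue gut ratio was 0.667 (95% counting interval 0.556 to 0.798) in Cmi depletion, 4.63 (3.76 to 5.74) in the libraries labelled Trr depletion and 3.57 (3.09 to 4.14) in wild type. Cmi depletion was thus lower at clear gut and the other genotypes higher, and the common change of 0.95 was not called (limma adjusted p = 0.207). Cyp304a1 stood at 8.97 to 25.2 RPKM at clear gut against 25.3 to 39.3 RPKM at blue gut (limma adjusted p = 0.0937).

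The 5 members that rose against the run of the family were 4 CYP3 genes and the CYP4 gene Cyp312a1. Cyp309a1 had 89.5 RPKM in Cmi depletion, 88.5 in the library labelled Trr depletion and 94.99 in wild type at clear gut, against 17.6, 15.9 and 38.1 RPKM at blue gut in the same genotypes (log2 change 1.99, SE 0.25, limma adjusted p = 0.00800). The clear gut libraries were nearly level, and all lay above the blue gut libraries. Its neighbour Cyp309a2, whose nearest end lies 56 bases from it on the same strand, stood at 2.01 to 2.97 RPKM at clear gut against 2.16 to 2.24 RPKM at blue gut, and was not called (limma adjusted p = 0.868).

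Cyp312a1 had 15.2 RPKM in Cmi depletion, 22.1 in the library labelled Trr depletion and 18.2 in wild type at clear gut, against 4.75, 7.15 and 5.52 RPKM at blue gut in the same genotypes. Its clear gut to blue gut ratio was 3.20 (95% counting interval 2.85 to 3.60) in Cmi depletion, 3.09 (2.81 to 3.40) in the libraries labelled Trr depletion and 3.29 (2.95 to 3.67) in wild type. The 3 intervals overlapped, and the log2 change was 1.52 (SE 0.12, limma adjusted p = 0.00362).

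Cyp6v1 stood at 24.8 to 35.3 RPKM at clear gut against 10.2 to 12.9 RPKM at blue gut (log2 change 1.22, SE 0.12, limma adjusted p = 0.00542). Cyp6d5 had 174 RPKM in Cmi depletion, 105 in the library labelled Trr depletion and 96.6 in wild type at clear gut, against 69.9, 55.2 and 52.1 RPKM at blue gut in the same genotypes (log2 change 1.03, SE 0.13, limma adjusted p = 0.00854). Both genes were higher in every clear gut library, and Cyp6d5 was highest in Cmi depletion at both stages. Cyp6d2 stood at 23.1 to 38.0 RPKM at clear gut against 13.1 to 23.6 RPKM at blue gut, so that its stages overlapped. The Cyp6d2 change of 0.65 (limma adjusted p = 0.0205) was no longer called with median-ratio scaling, at adjusted p = 0.101, or with quantile normalization, at adjusted p = 0.0531. It was also lost without either library labelled Trr depletion, at limma adjusted p = 0.106 and 0.101, with a change of 0.57.

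**Figure D3:**
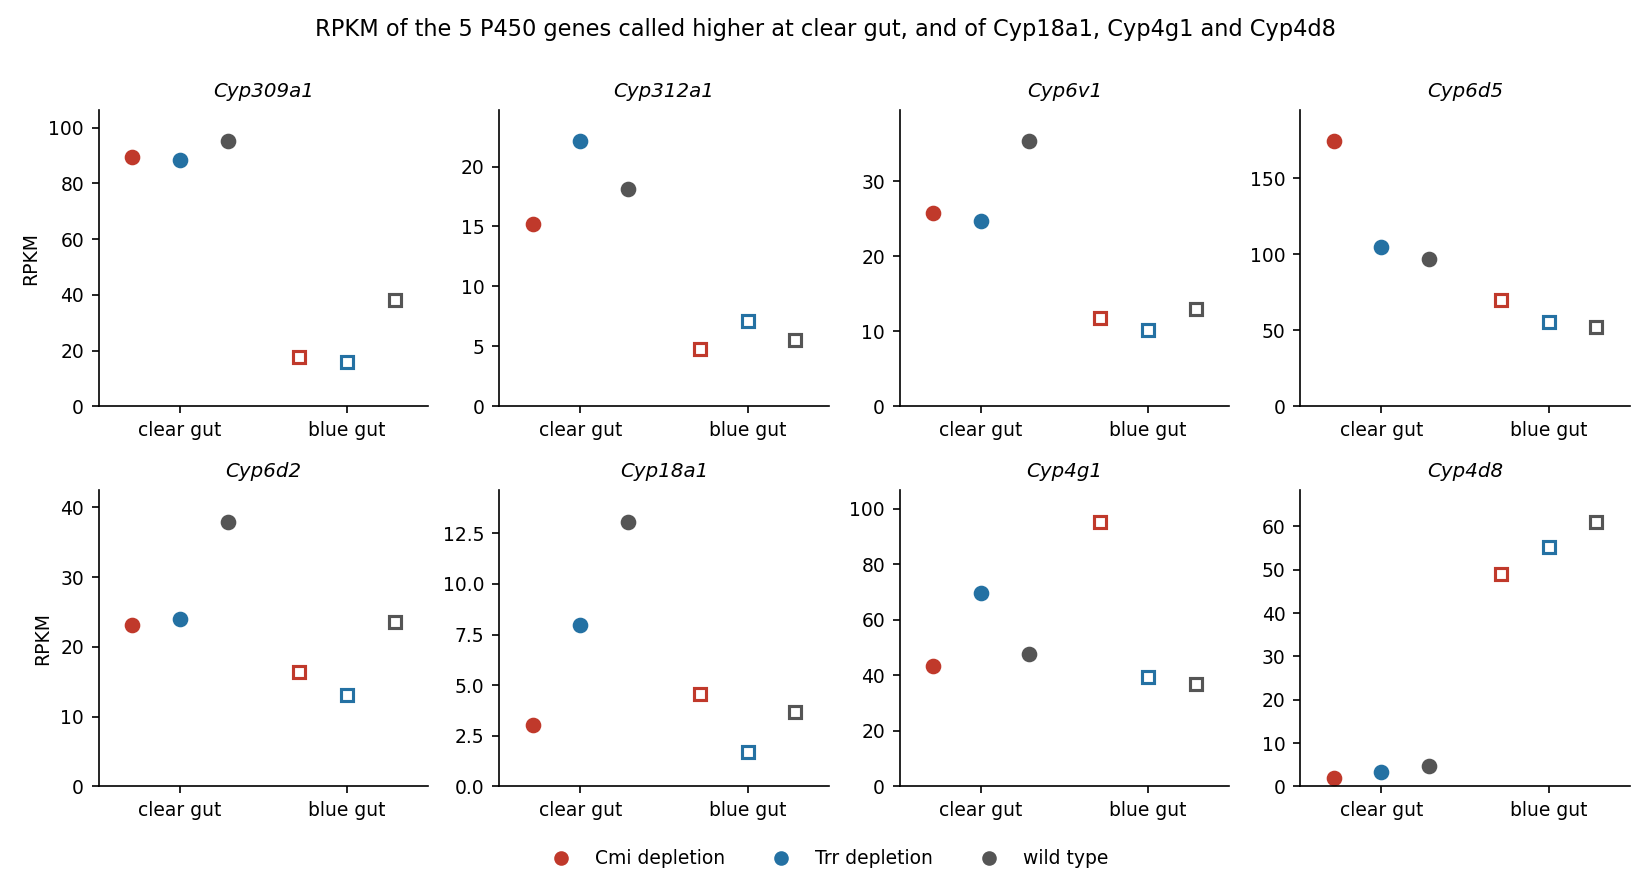
RPKM of the 5 P450 genes called higher at clear gut and of Cyp18a1, Cyp4g1 and Cyp4d8, with 1 point per library, filled circles for clear gut and open squares for blue gut. Cyp309a1 lies between 88.5 and 94.99 RPKM in the clear gut libraries, Cyp4g1 peaks at 95.4 RPKM in the blue gut library of Cmi depletion, and Cyp18a1 peaks at 13.1 RPKM in wild type at clear gut.

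P450 genes of the fly often lie side by side as copies of one another, and 41 of the 79 members had another member within 10 kb, forming 14 groups. Of the 34 tested members in such groups, 28 fell and 1 rose. Of the 29 tested members that lay alone, 12 fell and 4 rose. The largest group held 9 genes, Cyp6a22 to Cyp317a1, over 31.7 kb of chromosome arm 2R (dm6, 14871366 to 14903095), and the 7 of them that were tested all fell. The stage change within this group ran from -0.60 for Cyp6a22 to -3.37 for Cyp6a23. The group includes Cyp6a20, known for its part in male aggression, which never passed 1.34 RPKM.

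Reads can be shared among such copies. In 25 members at least 1 library gave a value that falls on whole reads plus 0.5, and in 12 members at least 3 libraries did, so their counts may be split between genes. They include Cyp6a23 (2 libraries), Cyp6a9 (2), Cyp6a21 (2), Cyp9f2 (3), Cyp6g1 (3), Cyp6d5 (3), Cyp301a1 (5) and Cyp6d2 (5). Cyp4d8, Cyp309a1, Cyp312a1 and Cyp12a4 had none. Over all genes 85.4% to 86.3% of values fell on whole reads, and nearly all others on whole reads plus 0.5. Such values are thus not particular to P450 genes, and Cyp301a1 and Cyp6d2 have no other member within 10 kb. Cyp6a9 overlaps Cyp6a19 on the opposite strand and Cyp6g1 likewise overlaps Cyp6g2, and whether reads were counted by strand is not given in the sources used here, so reads of the overlaps may belong to either gene.

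**Figure D4:**
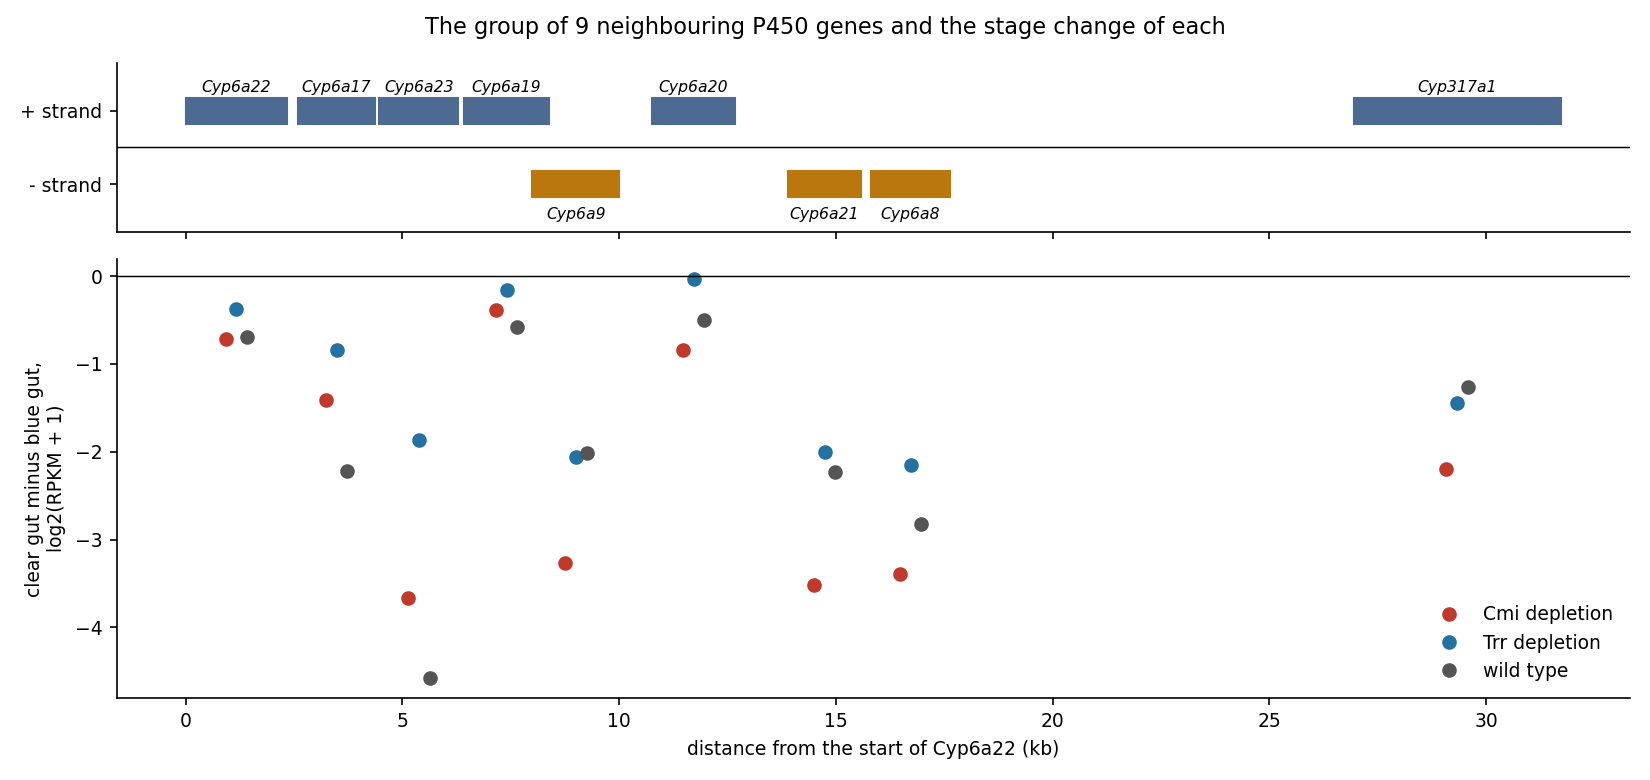
Map of the 9 neighbouring P450 genes Cyp6a22 to Cyp317a1 by strand, in kb from the start of Cyp6a22 (top), with the stage change of each on the log2(RPKM + 1) scale in Cmi depletion (red), the libraries labelled Trr depletion (blue) and wild type (grey) below it. All points lie below 0, and Cyp6a23 reaches the lowest, in wild type.

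Of 6 tested genes listed as electron donors of P450s, 3 fell and 0 rose at clear gut. Cpr, the reductase of the microsomal P450s, had 31.8 RPKM in Cmi depletion, 38.7 in the library labelled Trr depletion and 31.6 in wild type at clear gut, against 64.9, 74.7 and 85.2 RPKM at blue gut in the same genotypes (log2 change -1.11, SE 0.14, limma adjusted p = 0.00804). The others of the list that fell were cytochrome b5, Cyt-b5 (-0.70), and Cyt-b5-r (-1.96). Whether Cyt-b5-r is such a donor was not tested. The mitochondrial partners dare, which reduces ferredoxin, and Fdxh, a ferredoxin, changed by -0.17 and -0.19 and were not called.

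Of 7 tested Halloween genes, which make ecdysone, 2 rose (sad 0.83, spok 0.72) and 0 fell. Among 11 genes of xenobiotic and juvenile hormone control, 4 rose (gce 0.90, tgo 0.85, ss 0.71, Keap1 0.69) and 2 fell (Jheh3 -3.25, Jheh1 -1.36). The last 2 encode juvenile hormone epoxide hydrolases. Of 10 tested UDP-glycosyltransferases, enzymes that conjugate the products of P450s, 5 fell and 1 rose. Of all genes 24.2% were called higher and 11.1% lower, and the Halloween and control genes' counts lie near those shares.

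The comparison of Cmi depletion with wild type asked which members differed in level between these libraries. Depletion and stock background cannot be told apart in it. Limma called 1 of the 63 tested members, Cyp12a4, which was higher, beside 0.0872% of all genes called higher, 0.0174% called lower and 0.105% called in all. At an unadjusted p under 0.05 stood 13 members (20.6%), beside 6.81% of all genes. Cyp12a4, a mitochondrial P450 linked to resistance to the insecticide lufenuron, had 42.7 RPKM in Cmi depletion at clear gut, against 1.65 in wild type, and 64.9 RPKM in Cmi depletion at blue gut, against 3.06 in wild type. Both depletion values lay above both wild-type values. The ratio to wild type was 26.0 (95% counting interval 20.4 to 33.6) at clear gut and 21.2 (17.7 to 25.6) at blue gut, and the log2 change was 4.03 (SE 0.14, limma adjusted p = 0.00967). Without either wild-type library limma called 0 of all genes, Cyp12a4 included, and its change was 3.97 or 4.10. Without the Cmi depletion library at clear gut limma called 5 members among 68 genes, and without that at blue gut 9 members among 328 genes, where the fit of all libraries called 12 genes.

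Cyp12a5, whose nearest end lies 454 bases before Cyp12a4 on the same strand of 3R (dm6, 19132648 to 19137136 for the pair), did not follow it. It had 0.159 RPKM in Cmi depletion at clear gut, against 0.380 in wild type, and 0.968 RPKM in Cmi depletion at blue gut, against 2.32 in wild type. Its ratio to wild type was 0.418 (95% counting interval 0.154 to 0.973) at clear gut and 0.417 (0.289 to 0.594) at blue gut.

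At least 2-fold lower in Cmi depletion at both stages were Cyp6a18, Cyp28d1 and Cyp28a5, 3 of 63 members, where 1.06% of all genes were. Cyp12a4 alone was at least 2-fold higher at both stages, where 0.436% of all genes were. Cyp6a18 had 0.436 RPKM in Cmi depletion at clear gut, against 8.47 in wild type, and 7.08 RPKM in Cmi depletion at blue gut, against 26.2 in wild type (limma adjusted p = 0.164). Cyp28d1 had 13.5 RPKM in Cmi depletion at clear gut, against 34.9 in wild type, and 29.8 RPKM in Cmi depletion at blue gut, against 67.0 in wild type (limma adjusted p = 0.164). Both were lower in Cmi depletion at each stage, beyond counting error, without a limma call. Cyp28a5 had 3.32 RPKM in Cmi depletion at clear gut, against 7.84 in wild type, and 44.1 RPKM in Cmi depletion at blue gut, against 123 in wild type (limma adjusted p = 0.672).

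Within a stage no test is possible, and counts are given past 2-fold on the RPKM + 1 scale. At clear gut 4 members were higher in Cmi depletion and 9 lower, where 1.38% and 4.26% of all genes were. At blue gut 5 were higher and 8 lower, where 1.86% and 2.19% of all genes were. Some members differed at 1 stage, or in opposite directions at the stages. Cyp4e3, linked to permethrin tolerance in the tubules, had 39.2 RPKM in Cmi depletion at blue gut, against 4.93 in wild type, and 0.350 RPKM in Cmi depletion at clear gut, against 0.884 in wild type. Its ratio to wild type was 7.94 (95% counting interval 6.87 to 9.21) at blue gut and 0.396 (0.207 to 0.725) at clear gut. Cyp6w1 had a ratio of 6.24 (95% counting interval 5.51 to 7.08) at blue gut and 0.540 (0.291 to 0.973) at clear gut. Cyp6a2 had a ratio of 14.9 (9.59 to 24.4) at blue gut, while at clear gut it had 0.142 RPKM in Cmi depletion and 0.0730 RPKM in wild type, with an interval of the ratio of 0.412 to 11.9. All 3 thus stood high in the Cmi depletion library at blue gut, and Cyp4e3 and Cyp6w1 were lower than in wild type at clear gut. Midgut enzyme genes summed to 4249 RPKM in Cmi depletion at clear gut, against 4974 in wild type, and to 45257 RPKM in Cmi depletion at blue gut, against 41933 in wild type. Muscle genes summed to 181 RPKM in Cmi depletion at clear gut, against 510 in wild type, and to 2540 RPKM in Cmi depletion at blue gut, against 2302 in wild type. Salivary gland genes summed to 2455 RPKM in Cmi depletion at clear gut, against 16977 in wild type, and to 5553 RPKM in Cmi depletion at blue gut, against 21790 in wild type. Limma called 0 of the 26 midgut, 10 muscle and 6 salivary gland genes tested. The part of these tissues in the P450 values was not tested.

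The libraries labelled Trr depletion were set against the same wild-type libraries, so the depletions' differences from wild type are not independent. Limma called 1 of the 63 members, Cyp12a4, again higher, beside 0.0523% of all genes called higher and 0.0% called lower. At an unadjusted p under 0.05 stood 11 members (17.5%), beside 6.88% of all genes. Cyp12a4 had 117 RPKM in the library labelled Trr depletion at clear gut, against 1.65 in wild type, and 155 RPKM in that labelled Trr depletion at blue gut, against 3.06 in wild type. These were its highest values in the series. The ratio was 71.4 (95% counting interval 56.2 to 92.1) at clear gut and 50.5 (42.2 to 61.0) at blue gut, with a log2 change of 5.37 (SE 0.14, limma adjusted p = 0.00270). Without either wild-type library limma again called 0 of all genes, and the Cyp12a4 change was 5.31 or 5.44. Without the Cmi depletion library at clear gut limma called 5 members among 106 genes, and without that at blue gut 5 among 99, where the fit of all libraries called 6 genes.

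Cyp12a4, Cyp4p1, Cyp4e3, Cyp6t3 and Cyp4ac3 were at least 2-fold higher at both stages in the libraries labelled Trr depletion, 5 of 63 members, where 0.619% of all genes were. None of the members was at least 2-fold lower at both stages, where 0.436% of all genes were. Cyp4p1 had 15.1 RPKM in the library labelled Trr depletion at clear gut, against 0.903 in wild type, and 23.1 RPKM in that labelled Trr depletion at blue gut, against 4.75 in wild type. The ratio was 16.7 (95% counting interval 12.003 to 24.0) at clear gut and 4.87 (4.15 to 5.73) at blue gut, and both values labelled Trr depletion lay above both of wild type. Its neighbours in the same row of copies stood at 0.872 RPKM (Cyp4p2) and 1.41 RPKM (Cyp4p3) in the library labelled Trr depletion at clear gut, against 0.513 and 0.273 RPKM in wild type.

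Cyp6t3, which acts in ecdysone production in the prothoracic gland, had 3.49 RPKM in the library labelled Trr depletion at clear gut, against 0.538 in wild type, and 2.11 RPKM in that labelled Trr depletion at blue gut, against 0.511 in wild type. Cyp4e3 had 5.46 RPKM in the library labelled Trr depletion at clear gut, against 0.884 in wild type, and 15.8 RPKM in that labelled Trr depletion at blue gut, against 4.93 in wild type. Cyp4ac3 had 3.42 RPKM in the library labelled Trr depletion at clear gut, against 0.697 in wild type, and 9.92 RPKM in that labelled Trr depletion at blue gut, against 3.92 in wild type. Each was higher at both stages, and their limma adjusted p was 0.424 for Cyp6t3, 0.633 for Cyp4e3, 0.245 for Cyp4ac3 and 0.369 for Cyp4p1. All 4 are among the 5 members called without the Cmi depletion library at clear gut or that at blue gut, at limma adjusted p = 0.00769 to 0.0414, and these fits also called more of all genes.

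At clear gut 10 members were at least 2-fold higher in the library labelled Trr depletion and 0 lower than in wild type, where 2.4% and 1.27% of all genes were. At blue gut 5 were higher and 8 lower, where 1.66% and 2.17% of all genes were. Midgut enzyme genes summed to 6296 RPKM in the library labelled Trr depletion at clear gut, against 4974 RPKM in wild type. At blue gut they summed to 39348 RPKM in that labelled Trr depletion, against 41933 RPKM in wild type. Muscle genes summed to 830 RPKM in the library labelled Trr depletion at clear gut, against 510 RPKM in wild type. Their sums at blue gut were 1990 RPKM in that labelled Trr depletion and 2302 RPKM in wild type. Salivary gland genes summed to 13497 RPKM in the library labelled Trr depletion at clear gut, against 16977 RPKM in wild type, and to 8916 RPKM in that labelled Trr depletion at blue gut, against 21790 RPKM in wild type. Limma called 0 genes of these lists in this comparison. Their part in the P450 values was not tested.

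**Figure D5:**
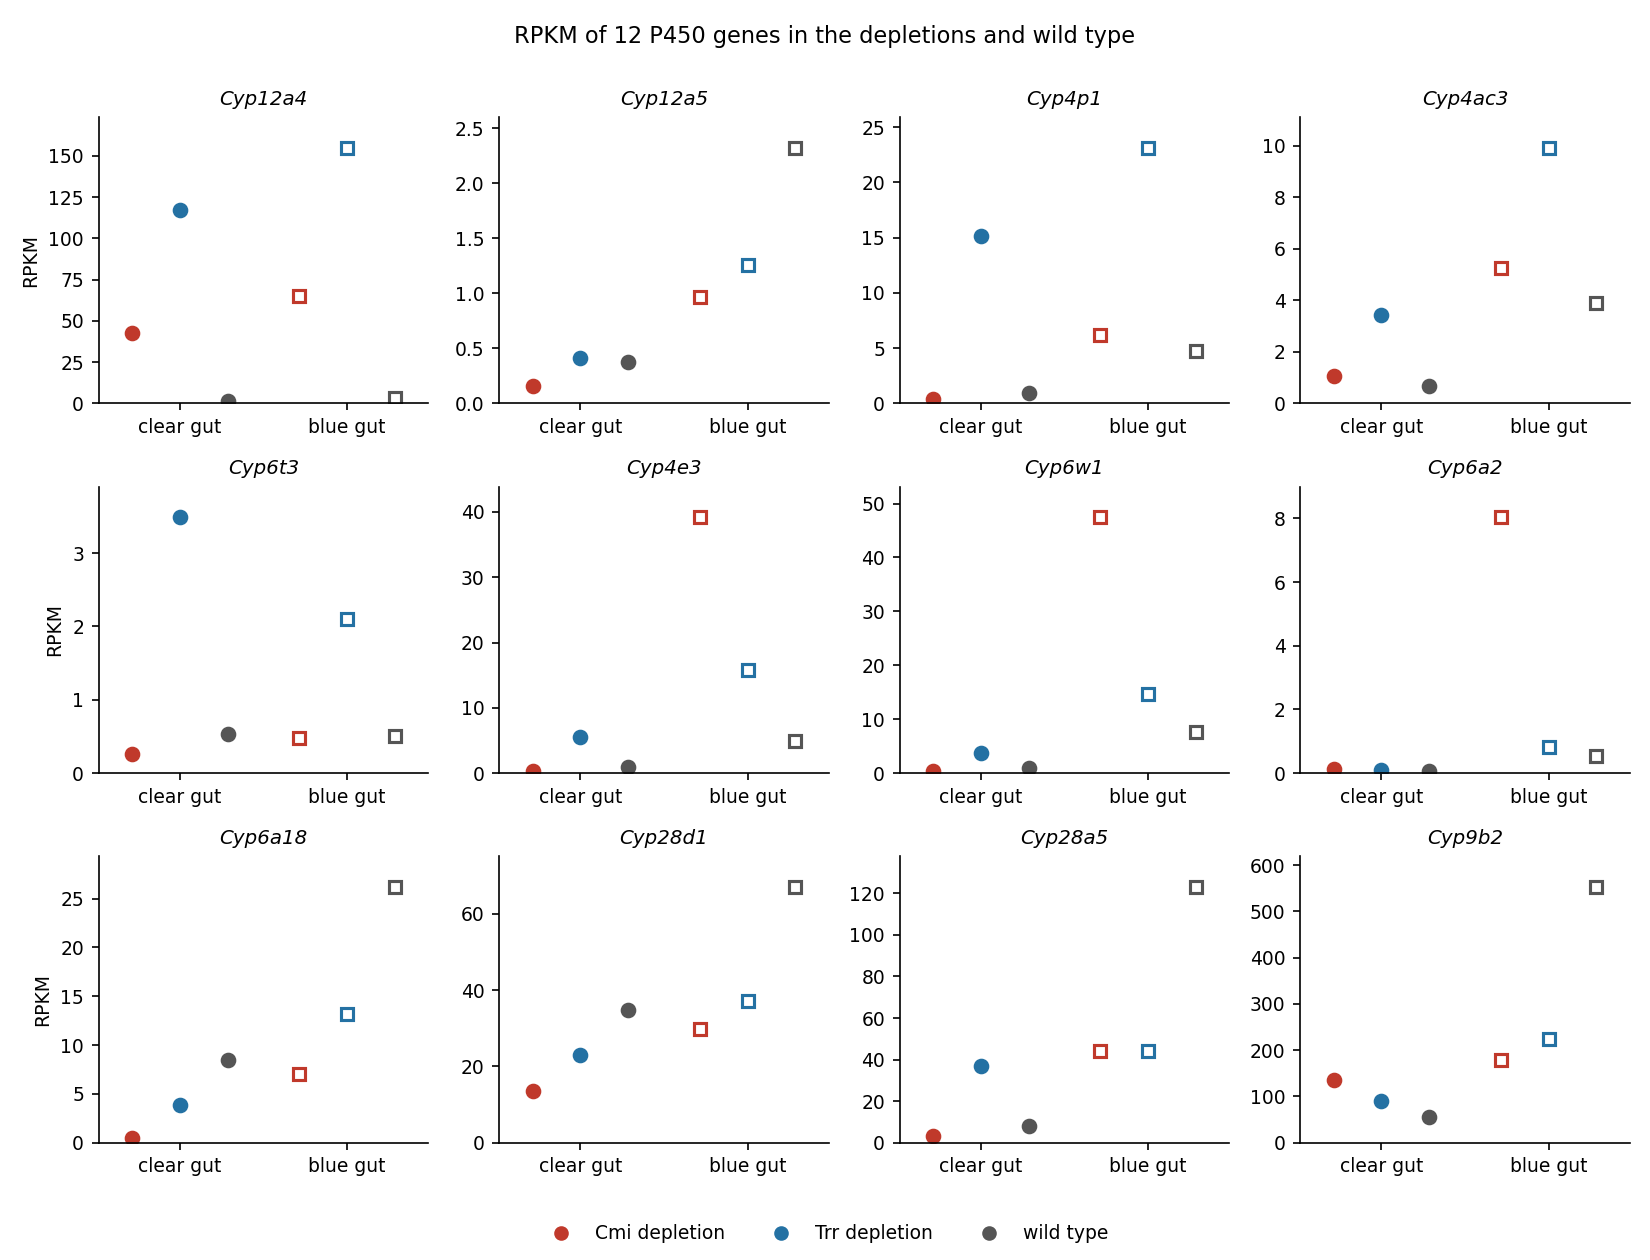
RPKM of 12 P450 genes in Cmi depletion (red), the libraries labelled Trr depletion (blue) and wild type (grey), with 1 point per library, filled circles for clear gut and open squares for blue gut, on an axis of its own for each gene. Cyp12a4 is 42.7 to 155 RPKM in the depletions and at most 3.06 RPKM in wild type, Cyp4p1 is high in the libraries labelled Trr depletion, and Cyp6a18 is lowest in Cmi depletion.

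The libraries labelled Trr depletion were also set against Cmi depletion, the comparison that uses no wild-type library. At clear gut 16 of the 63 members (25.4%) were at least 2-fold higher in the library labelled Trr depletion and 0 lower, where 5.67% and 1.26% of all genes were. At blue gut 3 were higher and 6 lower, where 1.11% and 1.47% of all genes were. At clear gut midgut enzyme genes summed to 6296 RPKM in the library labelled Trr depletion and 4249 RPKM in Cmi depletion, muscle genes to 830 and 181 RPKM, and salivary gland genes to 13497 and 2455 RPKM, in the same libraries. The part of tissue content in the P450 values was not tested.

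Cyp12a4, Cyp4p1 and Cyp6t3 were at least 2-fold higher than in Cmi depletion at both stages, where 0.453% of all genes were. Cyp12a4 had a ratio of 2.75 (95% counting interval 2.60 to 2.90) at clear gut and 2.38 (2.28 to 2.50) at blue gut. Cyp4p1 had a ratio of 37.7 (23.4 to 65.2) at clear gut and 3.76 (3.26 to 4.34) at blue gut. Cyp28a5 had 36.7 RPKM in the library labelled Trr depletion at clear gut, against 3.32 in Cmi depletion, and 44.1 RPKM in both at blue gut, with a ratio of 11.1 (9.33 to 13.2) at clear gut and 1.00 (0.937 to 1.07) at blue gut. The Cyp28a5 difference thus stood at clear gut, while at blue gut the libraries could not be told apart at this depth.

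The stage change itself was set side by side over the genotypes. At least 2-fold lower at clear gut were 40 of the 63 tested members in Cmi depletion, 27 in the libraries labelled Trr depletion and 40 in wild type, where 10.4%, 6.75% and 9.25% of all genes were. At least 2-fold higher were 4 in each genotype, where 8.68%, 6.9% and 14.8% of all genes were. The median change of the tested members was -1.53 in Cmi depletion, -0.72 in the libraries labelled Trr depletion and -1.31 in wild type, beside 0.31, 0.12 and 0.12 over all genes. The difference between these medians was not tested, since each genotype holds 1 pair of libraries.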

How the data were processed

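The deposited table holds RPKM, which the authors computed from reads per gene with gene length and sequencing depth divided out, beside each gene's length. Per the labels' protocols, RNA was selected with oligo dT, sequenced on an Illumina HiSeq instrument and aligned with SOAPaligner/SOAP2. Bowtie and dm6 stand in the submitters' processing notes. How reads were counted, and on which annotation, is not given in the sources used here. Dividing out length and depth gave whole reads, to within 0.1, for 85.4% to 86.3% of values and whole reads or whole reads plus 0.5 for 99.99% to 100%. Ratios carry exact 95% (Clopper-Pearson) intervals from these reads, which cover counting error only, as PCR copies are not independent molecules.

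Members were matched to RefSeq Release 6 by gene ID, all 79 with coordinates. The test was limma 3.58.1 in R 4.3.3 (trend and robust) on log2(RPKM + 1), a scale that understates changes of low genes. It used the 11467 genes whose mean reached 1 RPKM, additive terms for genotype and stage with 2 residual degrees of freedom, two-sided Benjamini-Hochberg adjustment over all genes, and 0.05 as threshold. Only its stage term was tested on simulated data, which held known stage changes and no genotype effects. The depletion terms were not tested in this way. Genes named are the 5 most abundant, up to 6 called per clan and direction with the largest smallest change over the genotypes, those called or 2-fold at both stages in a depletion, and genes of known role. Cyp309a2, Cyp4p2, Cyp4p3, Cyp6a20 and Cyp6a22 are their neighbours. The members and gene lists were chosen with earlier results of these data known.

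Alternatives were a pseudocount of 0.1, no filter, median-ratio and quantile scaling, limma without trend, no genotype term and leaving out libraries.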

Additional observations from a re-analysis of the deposited data

Results flagged for a closer look

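In 6 cases a member lay at least 2-fold above another genotype at one stage and at least 2-fold below it at the other, and none of these differences between stages was tested. Values are log2 ratios of RPKM + 1, with clear gut first. Against wild type, the libraries labelled Trr depletion stood at 2.09 and -1.46 for Cyp28a5 and at 1.04 and -1.66 for Cyp6a23. Cmi depletion against wild type stood at 1.27 and -1.63 for Cyp9b2. These 3 genes have their highest value in wild type at blue gut, with 123 RPKM for Cyp28a5, 207 RPKM for Cyp6a23 and 552 RPKM for Cyp9b2. The libraries labelled Trr depletion against Cmi depletion stood at 2.26 and -1.26 for Cyp4e3, at 1.72 and -1.63 for Cyp6w1, and at 1.15 and -1.04 for Cyp18a1. Cyp4e3 and Cyp6w1 have both their highest and their lowest value in Cmi depletion, 39.2 RPKM at blue gut and 0.350 RPKM at clear gut for Cyp4e3.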

How the results depend on the processing

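With another pseudocount, filter, scaling, limma setting or model, 36 to 44 members were called lower and 4 or 5 higher at clear gut, 39 to 45 of the 45 calls being shared (39 with no genotype term), and Cyp12a4 stayed the 1 member called in each depletion under those of these settings that keep genotype. Leaving out 1 library at a time, the members called lower ranged from 0 to 38 and higher from 0 to 7, with 0 of all genes called without either wild-type library and 38 to 41 of the 45 calls shared without any other. Members called in Cmi depletion ranged from 0 to 9 and in the libraries labelled Trr depletion from 0 to 5, while the calls over all genes in these fits ranged from 0 to 328 and from 0 to 106. The 5 called in Cmi depletion without its clear gut library were Cyp12a4, Cyp6w1, Cyp4e3, Cyp6a2 and Cyp6a18, and without its blue gut library Cyp12a4 and Cyp6a18 were again among the 9; the cause was not tested. Such fits keep 1 residual degree of freedom and assume that the lone library varies like the others. Without both libraries labelled Trr depletion, chosen after seeing the data, 36 members were lower, 4 higher and 1 called in Cmi depletion. With median-ratio or quantile scaling 1 member, Cyp6a18, was at least 2-fold lower at both stages in the libraries labelled Trr depletion, against 0 as deposited, and Cyp6t3 left the 5 that were higher. No result reversed. Among the stage calls followed gene by gene, those of Cyp28d1, Cyp12a4 and Cyp6d2 were lost with no genotype term, and that of Cyp12e1 with no filter. Not all of the 45 calls were followed in this way. No paired analysis was possible because each group holds 1 library, so that the groups share fewer than 2 replicate numbers; this concerns replicate numbers alone, since the genotype term already compares the stages within genotype. Depth limits values near the floor of 3 reads, which for a gene of median length (1543 bases) is 0.0777 to 0.0842 RPKM.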
